A study of Drosophila melanogaster with 2 samples.

Results

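The peaks described here were those listed for the transcription factor pan in a longer pooled peak list and absent from a conservative one. They were selected on reproducibility: each passed the authors' threshold in the longer pooled list and overlapped, by even 1 bp, no peak of the conservative pooled list. On the main chromosome arms, 1302 of the 7074 peaks of the longer list, or 18.4%, met this rule, and the other 5772 overlapped a conservative peak. The conservative list held 6359 peaks on the same arms, of which 545 (8.57%) overlapped no peak of the longer list. Below, the 1302 are called longer-list-only peaks. Chromatin came from entire Drosophila melanogaster embryos, 0 to 24 h old, of a transgenic strain expressing pan fused to eGFP, an enhanced green fluorescent protein. Bound DNA was recovered by chromatin immunoprecipitation with an anti-GFP antibody and sequenced (ChIP-seq). There was 1 group with 2 biological replicates, all cell types of the embryo were mixed, and the fusion protein, not the native protein, was precipitated. A control named in the file descriptions was not used here, so whether a peak is specific to pan was not tested.

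pan (pangolin) is the fly member of the TCF family, the DNA-binding proteins at the end of the Wingless (Wnt) pathway. Without signal TCF sits on DNA with the corepressor Groucho, and with signal Armadillo, the fly beta-catenin, joins it through the adaptors lgs and pygo and genes are activated. TCF reads a short core site through its HMG box, and fly TCF also has a C-clamp domain that reads a second, GC-rich element called the helper site. Wingless patterns segments, gut, heart and limb primordia in the embryo, so whole embryos mix cells with and without the signal.

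Sequences reaching 50 bases to either side of the summits show what the longer-list-only peaks contained. All are given 5′ to 3′ on the plus strand of dm6, as held by the RefSeq Release 6 assembly, and each window holds no annotated exon. The first set was chosen for the TCF core, CTTTG followed by 2 letters that are each A or T, and the capitals mark that core on either strand. The stricter form CTTTGATC was present at 4 of the 1302 summits (0.307%), against 0.472% of conservative summits and 0.303% of ranked peaks that passed no threshold. The first 3 lines hold the strict form and the last holds the core at 2 positions.
rhea (chr3L:8553225-8553325): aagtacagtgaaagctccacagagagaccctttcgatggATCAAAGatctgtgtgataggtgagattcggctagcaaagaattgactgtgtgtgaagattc
lncRNA:CR45668 (chrX:5898538-5898638): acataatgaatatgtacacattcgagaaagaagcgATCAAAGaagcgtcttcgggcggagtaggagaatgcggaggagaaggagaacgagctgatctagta
Hr96 (chr3R:25027745-25027845): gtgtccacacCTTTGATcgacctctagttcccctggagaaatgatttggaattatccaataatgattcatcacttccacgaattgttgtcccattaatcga
aos (chr3L:16483943-16484043): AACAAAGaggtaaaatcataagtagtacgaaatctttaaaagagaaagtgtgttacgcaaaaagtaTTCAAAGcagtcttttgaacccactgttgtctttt

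The first line lay in an intron of rhea, which encodes talin, with a pooled signal of 86.0, and the signals were 23.7 in replicate 1 and 51.7 in replicate 2. The window in the long non-coding RNA gene CR45668 had 74.3 pooled, 39.1 in replicate 1 and 30.3 in replicate 2. The window in an intron of Hr96, a nuclear receptor gene, had 66.4 pooled, 40.5 in replicate 1 and 20.3 in replicate 2. The window 343 bp from a start of aos, which encodes the secreted EGF receptor inhibitor Argos, had 139.1 pooled, 107.6 in replicate 1 and 13.1 in replicate 2. Its summit lay inside the gene CG33158. None of the first 3 was in either replicate's own passing list, and the aos peak was in that of replicate 1 alone.

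A further set was chosen for the sites of early embryonic and promoter factors. In the lines for Mrtf and mtg the capitals mark CAGGTAG, the site of Zelda, which opens chromatin in the early embryo. In the lines for croc and Dyro they mark GAGAGA, the site of GAGA factor (Trl), on either strand. The Zelda site was found at 0.768% of longer-list-only summits, 0.362% of conservative summits and 0.574% of peaks that passed nowhere. The GAGA site was found at 7.22%, 4.56% and 3.57% of the same sets.
Mrtf (chr3L:2765159-2765259): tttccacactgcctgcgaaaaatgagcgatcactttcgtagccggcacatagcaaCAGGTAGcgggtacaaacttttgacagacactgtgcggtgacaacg
mtg (chr3R:8251536-8251636): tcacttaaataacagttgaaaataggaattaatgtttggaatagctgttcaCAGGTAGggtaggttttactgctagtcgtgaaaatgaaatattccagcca
croc (chr3L:21479847-21479947): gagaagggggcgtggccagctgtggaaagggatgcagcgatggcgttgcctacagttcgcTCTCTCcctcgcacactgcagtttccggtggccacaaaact
Dyro (chr3L:11291581-11291681): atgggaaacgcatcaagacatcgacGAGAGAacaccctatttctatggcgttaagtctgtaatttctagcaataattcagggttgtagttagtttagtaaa

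The last set holds peaks within 1 kb of a transcription start site (TSS) of a Wnt pathway or Wingless-responsive gene. None of the 4 windows had the TCF core, which was at 9.45% of all longer-list-only summits, so 4 are too few to set apart. Capitals mark the homeodomain site TAATTA in the neur line, GAGA sites in the Notum line and the AP-1 site, TGA followed by C or G and then TCA, in the gish line.
neur (chr3R:9033890-9033990): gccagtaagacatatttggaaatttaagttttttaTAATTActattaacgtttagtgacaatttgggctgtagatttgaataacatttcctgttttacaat
lgs (chr4:444036-444136): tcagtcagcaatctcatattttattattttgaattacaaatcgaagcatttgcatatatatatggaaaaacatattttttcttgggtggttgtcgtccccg
Notum (chr3L:16023348-16023448): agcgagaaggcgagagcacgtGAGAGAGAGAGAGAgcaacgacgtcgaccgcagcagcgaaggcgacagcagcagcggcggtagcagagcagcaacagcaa
gish (chr3R:16288838-16288938): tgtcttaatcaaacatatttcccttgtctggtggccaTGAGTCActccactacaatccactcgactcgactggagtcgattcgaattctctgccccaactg

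Longer-list-only peaks had lower pooled signals than most conservative peaks. Their signal had a median of 71.9, with quartiles of 65.1 and 81.1, against 120.0 (85.6 to 195.2) in conservative peaks and 21.8 in ranked peaks that passed nowhere. The signal is the authors' enrichment value per peak on a scale not given in the sources used here. The irreproducible discovery rate (IDR) scores how well a peak recurs at a similar rank, and the deposited score is that rate rescaled to at most 1000. The scores of the 1302, which set the threshold, had a median of 949 and quartiles of 881 and 1000, in a passing range of 830 to 1000. The 3 longer-list-only peaks nearest to the threshold had a score of 830 and signals of 62.5, 63.6 and 84.7. The 3 ranked peaks just outside had a score of 829 and signals of 79.6, 82.7 and 84.4. Of the 1302, 1236 also appeared in the ranking behind the conservative list, with a median score there of 581 (quartiles 260.2 and 739), and 66 did not appear. Only 2 were past the threshold in that ranking. The scores chose the peaks, the signals come from the same peak calls, and neither carries a test.

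In the 2 replicates the longer-list-only peaks sat where one signal was low. A replicate's signal was read from its ranked peak that held the pooled summit, which existed for 1194 peaks in replicate 1 and 1201 in replicate 2. The median signal was 28.5 in replicate 1, against 61.7 for conservative peaks, and 38.2 in replicate 2, against 62.7 for conservative peaks. No conservative peak with such a value had less than 28.7 in replicate 1 or less than 31.3 in replicate 2. Of the 1106 longer-list-only peaks with both values, 972 (87.9%) fell below at least 1 of these floors. The shortfall was in replicate 1 alone for 536, in replicate 2 alone for 400 and in both for 36, and 134 were above both floors. Both sets of peaks were chosen on reproducibility, so the floors and the shortfall are not independent of that choice and carry no test. The signal was higher in replicate 2 for 660 of the 1106 (59.7%), against 51.8% of conservative peaks. The middle 50 percent of log2 ratios of replicate 2 over replicate 1 ran from −0.56 to 1.06 in longer-list-only peaks and from −0.30 to 0.34 in conservative peaks.

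**Figure D1:**
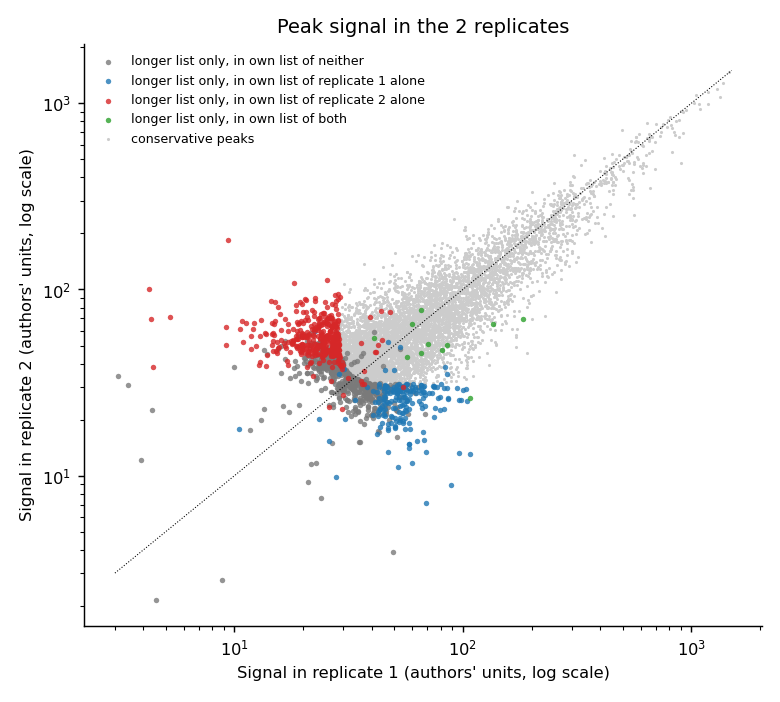
Signal of each peak in replicate 1 (horizontal, authors' units, log scale) and replicate 2 (vertical, authors' units, log scale). Coloured points are longer-list-only peaks by the replicate whose own passing list held them, pale grey points are conservative peaks, and the dotted line marks equal signal. The coloured points line 2 edges, below 28.7 in replicate 1 or below 31.3 in replicate 2, and the conservative points fill the space above both. Both sets were chosen on reproducibility, so this layout is not independent of the choice.

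Each replicate also had its own passing list, with 4557 peaks for replicate 1 and 5356 for replicate 2. Of the longer-list-only summits, 429 (32.9%) lay in a peak of replicate 2's list alone, 207 (15.9%) in replicate 1's list alone, 11 (0.845%) in both and 655 (50.3%) in neither. Among conservative peaks these shares were 15.6%, 10.5%, 52.5% and 21.4%. Longer-list-only peaks listed by replicate 2 alone had median signals of 24.2 in replicate 1 and 54.3 in replicate 2. Those listed by replicate 1 alone had medians of 54.3 in replicate 1 and 25.9 in replicate 2. Those in neither list had 30.2 in replicate 1 and 32.1 in replicate 2.

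Base composition separated the longer-list-only summits from the conservative ones. Within 50 bp of the summit the median GC content was 42.6%, against 33.7% in conservative peaks and 47.5% in peaks that passed nowhere. In windows 500 bp to either side the mean GC content was 41.5% for longer-list-only peaks and 42.7% for conservative peaks. At the summit the means were 41.9% for longer-list-only peaks and 35.9% for conservative peaks. Conservative peaks restricted to the central range of longer-list-only signal, from 21.3 to 107.1 (5th to 95th percentile, 2477 peaks), had a median of 38.6%. GC content followed the replicate as well, with medians of 44.6% for peaks listed by replicate 2 alone, 32.7% by replicate 1 alone and 43.6% by neither. Summits in repeat-masked sequence made up 16.0% of longer-list-only peaks, 22.1% of conservative peaks and 12.2% of peaks that passed nowhere.

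**Figure D2:**
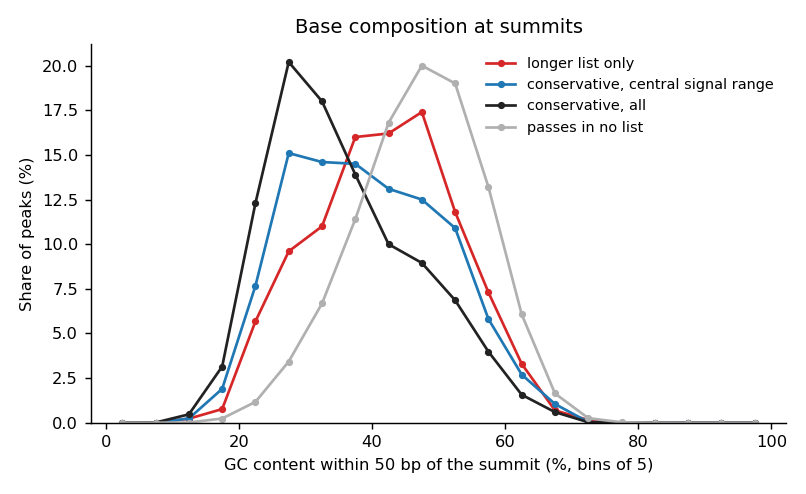
Share of peaks (vertical, percent) by GC content within 50 bp of the summit (horizontal, percent, bins of 5) for longer-list-only peaks, conservative peaks of the central signal range, all conservative peaks and peaks that passed in no list. The longer-list-only curve, with a median of 42.6%, lies between that of all conservative peaks (33.7%) and that of peaks that passed nowhere (47.5%).

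Promoter peaks made up nearly equal shares of longer-list-only and of all conservative peaks. A TSS of any annotated gene lay within 1 kb of 705 of 1302 summits (54.1%, 95% interval 51.4 to 56.9), against 54.0% of conservative summits and 27.0% of peaks that passed nowhere. The odds ratio over conservative peaks was 1.01 (0.894 to 1.14), with an adjusted p of 0.903 by Fisher's exact test over 6 position classes. Against conservative peaks of the central signal range the share within 1 kb was higher, at 54.1% against 50.1%, and passed (odds ratio 1.18, 1.03 to 1.35, adjusted p 0.0362). Closer in, 281 summits (21.6%) had a TSS no more than 100 bp away, compared with 18.3% of conservative and 3.89% of non-passing summits. This excess over conservative peaks passed the test, with an odds ratio of 1.23 (1.06 to 1.42) at an adjusted p of 0.0146. It did not pass against conservative peaks of the central signal range, where the odds ratio was 1.12 (0.951 to 1.32) and the adjusted p 0.209. Among longer-list-only peaks that overlapped replicate 1's own list, leaving out replicate 2, it was 0.795 and did not pass. Among those that overlapped replicate 2's own list, leaving out replicate 1, it was 2.06 and passed (adjusted p 1.57e-10). The conservative peaks were not filtered by replicate in these 2 comparisons. With replicate 1 left out the share within 1 kb passed too (odds ratio 1.46, adjusted p 0.000367). Over peaks that passed nowhere, the odds ratio of a TSS within 1 kb was 3.19. Neighbouring peaks are not independent and no embryo-to-embryo error enters, so the tests describe the lists.

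Away from promoters, intronic summits were fewer and exonic ones more frequent than in conservative peaks, and both calls depended on the setting. Intronic summits made up 29.1%, against 32.2% of conservative summits, with an odds ratio of 0.865 (0.759 to 0.986) at an adjusted p of 0.0464. Intergenic summits made up 12.8%, against 12%, and did not differ by the test (odds ratio 1.08, adjusted p 0.482). Exonic summits were rare in both but more frequent among longer-list-only peaks, at 51 of 1302 (3.92%), against 1.89% of conservative summits, with an odds ratio of 2.12 (1.52 to 2.96) at an adjusted p of 8.85e-05. Coding exons held 21 of them (1.61%), against 0.440% (odds ratio 3.71, 2.10 to 6.55, adjusted p 8.85e-05). In peaks that passed nowhere, exonic summits made up 19.5% and coding-exon summits 16.5%. Against conservative peaks of the central signal range the coding-exon share no longer passed (odds ratio 1.83, adjusted p 0.0792). For the higher-scoring peaks the odds ratio was 1.65 for exonic (adjusted p 0.108) and 2.10 for coding-exon summits (adjusted p 0.152), and neither passed. Neither exonic class passed with a replicate left out: exonic 1.59 without replicate 1 and 1.39 without replicate 2, coding exon 1.45 without replicate 1 and 0.983 without replicate 2. The intronic call ended without the 2 peaks past the threshold in the conservative ranking (adjusted p 0.0502), over 200 bp (0.0649) and over 1 kb (0.241) from a conservative peak, and with a TSS window of 500 bp (0.0502). Without replicate 2 the intronic odds ratio was 1.07 and did not pass, and without replicate 1 the intergenic one was 0.664 and passed (adjusted p 0.0214).

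**Figure D3:**
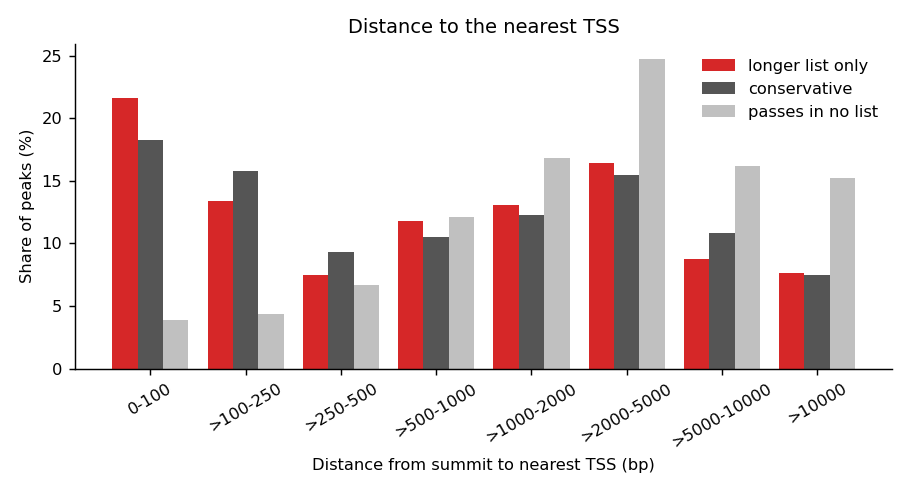
Share of peaks (vertical, percent) by distance from the summit to the nearest TSS (horizontal, bp) for longer-list-only peaks, conservative peaks and peaks that passed in no list. In the nearest bin, up to 100 bp, the shares are 21.6%, 18.3% and 3.89%.

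Many longer-list-only peaks lay beside conservative ones. Of the 1302, 306 (23.5%) were within 1 kb of a conservative peak, against 9.99% of peaks that passed nowhere, and 41 were within 200 bp. Another 168 overlapped a further longer-list-only peak, so not all are separate sites. The pooled signal was under 10 at 40 of them.

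The split by replicate carried a difference in position, a comparison added after the data were seen. Among peaks listed by replicate 2 alone, 143 of 429 (33.3%) had a TSS no more than 100 bp away, compared with 30 of 207 (14.5%) among those listed by replicate 1 alone. The odds ratio was 2.95 (1.91 to 4.56) at an adjusted p of 2.2e-06 by Fisher's exact test. Peaks in neither list were at 16.2%. Within 1 kb the shares were 62.7% for replicate 2 alone and 49.3% for replicate 1 alone (odds ratio 1.73, adjusted p 0.00446). Intergenic summits were fewer for replicate 2 alone, at 8.16% against 14.5% (odds ratio 0.524, adjusted p 0.0344). Conservative peaks split the same way, with 26.9% within 100 bp of a TSS for replicate 2 alone and 15.7% for replicate 1 alone (odds ratio 1.97, 1.53 to 2.54). Their median GC content was 40.6% for replicate 2 alone and 31.7% for replicate 1 alone. This compares 2 libraries with peaks as the counted units, so the p-values measure no variation between libraries. What sets the libraries apart was not tested.

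**Figure D4:**
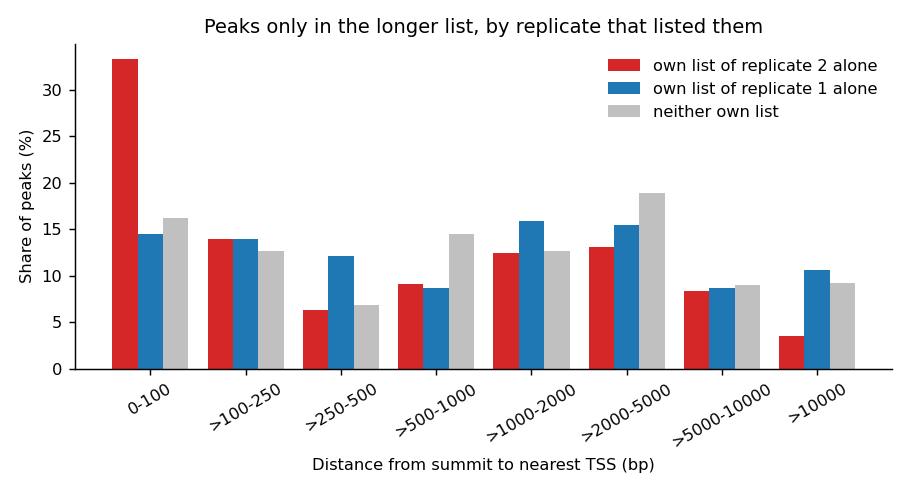
Share of longer-list-only peaks (vertical, percent) by distance from the summit to the nearest TSS (horizontal, bp), for peaks in the own passing list of replicate 2 alone, of replicate 1 alone and of neither. In the nearest bin the shares are 33.3%, 14.5% and 16.2%.

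Among the 18 motifs, the E-box alone passed the test between the replicates' lists in longer-list-only peaks. An E-box, CANNTG, the site of bHLH factors, was at 38.9% of summits listed by replicate 2 alone, against 23.7% for replicate 1 alone (odds ratio 2.06, 1.41 to 2.99, adjusted p 0.00219). In conservative peaks the same split gave 39.3% for replicate 2 alone and 35.5% for replicate 1 alone, which did not pass (odds ratio 1.17, adjusted p 0.244). There GAGA (odds ratio 2.15, adjusted p 0.0152) and GATA sites (0.673, adjusted p 0.0152) passed instead. In longer-list-only peaks these had odds ratios of 1.88 and 0.697 and did not pass (adjusted p 0.265 each). The homeodomain site was at 4.66% for replicate 2 alone, against 10.6% for replicate 1 alone, which did not pass the adjustment over 18 motifs (odds ratio 0.411, adjusted p 0.0556). The TCF core was at 7.93% for replicate 2 alone and 13.0% for replicate 1 alone (odds ratio 0.574, 0.336 to 0.980, adjusted p 0.201). Arm 2R held 26.1% of the peaks listed by replicate 2 alone, against 13.0% for replicate 1 alone (odds ratio 2.36, adjusted p 0.001). These tests too count peaks of 1 library against peaks of the other and measure no variation between libraries.

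The TCF core was found at nearly equal shares of longer-list-only and conservative summits. It was found within 50 bp of 123 of 1302 summits (9.45%, 95% interval 7.91 to 11.2), against 9.47% of conservative summits (odds ratio 0.998, 0.814 to 1.22). The windows 500 bp to either side of the same peaks held it in 7.76% of cases. The odds ratio of summit over flank was 1.24 (0.981 to 1.57), with a p of 0.0748 by Fisher's exact test and an adjusted p of 0.294 over the 18 motifs, which did not pass. With windows of 100 bp it was 1.06. Without replicate 2 it was 1.77, with an unadjusted p of 0.0387. The same ratio for conservative peaks was 1.26, and the quotient of the 2 was 0.982 (0.759 to 1.27). Peaks that passed nowhere had the core at 6.58% of summits, and longer-list-only peaks exceeded them with an odds ratio of 1.48 and an adjusted p of 0.000295. This was not particular to the TCF core. Of the 18 motifs 11 passed against that set, with the TATA box at 1.88, GATA at 1.46 and Sox at 1.41, and only the E-box lower (0.774). Summits that passed nowhere were richer in GC (median 47.5%, against 42.6%), GC was not a covariate there, and its part was not tested. A looser form, 2 letters that are each C or G, then TTTG, then 2 letters that are each A or T, was at 7.91% of longer-list-only summits and 6.76% of conservative summits (odds ratio 1.18, 0.947 to 1.48). Some of its matches are also matches of the core. The 123 peaks with the core had a median pooled signal of 72.1, against 71.9 in the 1179 without it.

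The helper site of the C-clamp, GCCGCC followed by A or G, was more frequent at longer-list-only summits. It was found at 3.84%, against 2.31% of conservative summits (odds ratio 1.69, 1.22 to 2.34, adjusted p 0.0122) and 4.71% of peaks that passed nowhere. With GC content of the window as a covariate the odds ratio was 0.992 (0.710 to 1.39), so the excess was not seen at equal GC. Against conservative peaks of the central signal range it was 1.23 (0.856 to 1.76).

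Of 18 motifs searched on both strands, 6 differed from conservative peaks at an adjusted p of 0.05. GAGA sites were higher, at 7.22% against 4.56% (odds ratio 1.63, 1.28 to 2.07, adjusted p 0.00108). The Myc-type E-box CACGTG, which is also a match of CANNTG, was higher, at 1.46% against 0.723% (odds ratio 2.03, 1.19 to 3.48, adjusted p 0.0411). The TATA box, TATA followed by A or T, then AA, then A or G, was lower, at 4.45% against 7.42% (odds ratio 0.582, 0.440 to 0.769, adjusted p 0.00108). The homeodomain site was lower, at 5.99% against 8.82% (odds ratio 0.659, 0.516 to 0.841, adjusted p 0.00378). The DREF site TATCGATA, of a factor that acts at promoters of growth and replication genes, was lower, at 0.691% against 1.54% (odds ratio 0.445, 0.224 to 0.882, adjusted p 0.0411). The helper site was the other one. With replicate 1 left out GAGA alone passed, and with replicate 2 left out none of the 6 did (GAGA 1.05, CACGTG 1.20, TATA box 1.31, homeodomain 1.43, DREF 0.841, helper 0.556). The E-box CANNTG alone passed without replicate 2, and was lower there (0.604, adjusted p 0.0171).

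Fewer motifs passed once GC content or signal was taken into account. With GC as a covariate 2 motifs passed: DREF, with an odds ratio of 0.327 (0.164 to 0.652, adjusted p 0.0181), and CGATA, the core of the BEAF insulator site and part of the DREF site, with 0.753 (0.628 to 0.901, adjusted p 0.0181). The GAGA odds ratio was then 1.26 (adjusted p 0.25), that of the homeodomain site 1.12 and that of the TATA box 1.04. Against the 2477 conservative peaks of the central signal range only DREF passed, at 0.691% against 1.90% (odds ratio 0.360, 0.176 to 0.737, adjusted p 0.0493). DREF rests on 9 summits, and its call against all conservative peaks ended in most other settings. The adjusted p was 0.0549 without the 2 peaks past the threshold in the conservative ranking, 0.059 for peaks over 200 bp from a conservative peak, 0.195 over 1 kb away and 0.0737 with overlapping peaks counted once. It was 0.782 for the higher-scoring peaks (odds ratio 0.593) and 0.191 with windows of 100 bp (0.676). CACGTG rests on 19 summits, and its call also ended in several settings. Its adjusted p was 0.0522 over 200 bp and 0.195 over 1 kb away, 0.216 for the higher-scoring peaks and 0.296 with windows of 100 bp. It held with overlapping peaks counted once (0.0456). GAGA did not pass over 1 kb away (odds ratio 1.34, adjusted p 0.195) and did for the higher-scoring peaks (1.93, 0.000988).

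**Figure D5:**
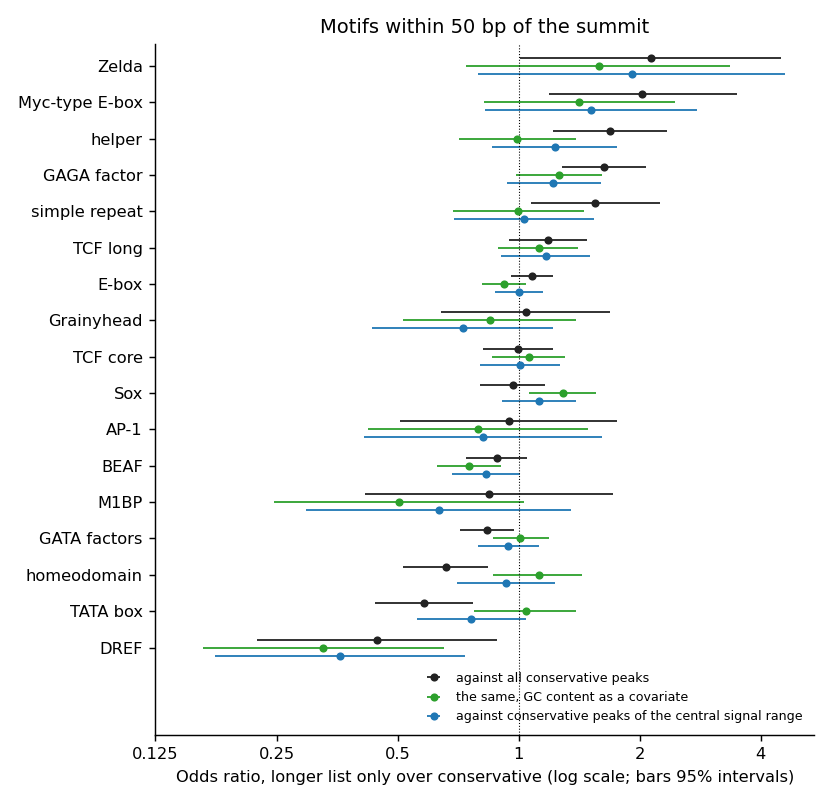
Odds ratio (horizontal, log scale) of longer-list-only over conservative summits for each motif within 50 bp, with 95% intervals, against all conservative peaks, with GC content as a covariate, and against conservative peaks of the central signal range. The TCF core stays near 1 in all 3 settings (0.998, 1.06 and 1.01), and DREF stays below 1 (0.445, 0.327 and 0.360).

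Set against their own flanks, longer-list-only and conservative summits differed in which sites were locally enriched. GAGA sites were at 7.22% of longer-list-only summits, against 4.34% of their flanks (odds ratio 1.72, 1.29 to 2.27, adjusted p 0.00462), the only motif of the 18 to pass that test. The same ratio in conservative peaks was 0.908, and the quotient of the 2, a test added after the data were seen, was 1.89 (1.38 to 2.59, adjusted p 0.00088). Of the 18 quotients, 7 passed. CACGTG had the highest, with ratios of 1.74 in longer-list-only and 0.496 in conservative peaks (quotient 3.5, 1.74 to 7.03, adjusted p 0.00229). The helper site had ratios of 1.38 in longer-list-only and 0.611 in conservative peaks (quotient 2.27, 1.5 to 3.42, adjusted p 0.00088). The TATA box had ratios of 1.13 in longer-list-only and 2.12 in conservative peaks (quotient 0.533, 0.374 to 0.760, adjusted p 0.00229). The other quotients that passed were 0.656 for the homeodomain site (adjusted p 0.021), 1.20 for the E-box and 0.797 for GATA (adjusted p 0.0498 each). The GC content fell at conservative summits and not at longer-list-only ones, as given above, and its part in these quotients was not tested. Summits and flanks of the same peaks were compared as unpaired sets.

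The remaining motifs did not pass the test against conservative peaks with 50 bp windows. E-boxes were at 37.5%, against 35.7% (odds ratio 1.08, 0.955 to 1.22). GATA sites, GATA preceded by A or T and followed by A or G, were at 18%, against 20.8% (odds ratio 0.836, 0.716 to 0.975, adjusted p 0.0552). The Sox site AACAAT was at 11.6%, against 12%. The promoter motif GGTCACAC of M1BP was at 0.691%, against 0.818%. The Grainyhead site, AC, then C or T, then GGTT, was at 1.54%, against 1.48%, and the AP-1 site at 0.922%, against 0.975%. The simple repeat CACACACA was at 2.92%, against 1.90% (odds ratio 1.55, adjusted p 0.0552). The simple repeat passed with windows of 100 bp (1.55, adjusted p 0.00372) and with overlapping peaks counted once (1.61, adjusted p 0.0456), and GATA passed in the second of these settings (0.826, adjusted p 0.0456). Zelda sites, at 10 summits, had an odds ratio of 2.13 (1.01 to 4.49) at an adjusted p of 0.117.

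Over all 2080 distinct 6-letter words, 296 (14.2%) were called higher and 184 (8.85%) lower in longer-list-only summits by Fisher's exact test. The calls followed base composition. All 36 words with no G or C letter were lower, with a median odds ratio of 0.595, and 17 of the 36 words made only of G and C were higher, with a median of 1.69. The most raised words were CGGGAG, at 2.53% against 0.928% (odds ratio 2.78, adjusted p 0.000374), CCCGGC (2.70), GCCGGC (2.68), ACGCGG (2.62) and CGCTCC (2.58). The most lowered were CACTAG, at 0.922% against 2.83% (odds ratio 0.319, adjusted p 0.000361), CTAAGA (0.442), CTATTA (0.485), TTAAAA (0.506) and TTACAA (0.517). Against conservative peaks of the central signal range 4 words were called, and with replicate 2 left out 0 were.

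Chromosome 4 and arm 2L were the 2 arms whose share differed from that of conservative peaks. Longer-list-only peaks numbered 9.47 per Mb over the main arms, against 46.2 for conservative peaks. Chromosome 4 held 7 of them, or 5.19 per Mb, against 6 conservative peaks, or 4.45 per Mb (odds ratio 5.72, 1.92 to 17.1, adjusted p 0.0187 over 7 arms). The odds ratio was 10.1 against conservative peaks in the full signal range of longer-list-only peaks and 13.4 against those of the central range. These sets are parts of the conservative list (5603 and 2477 peaks) and can hold no more than its 6 peaks on chromosome 4. The higher ratios therefore rest on very few peaks. Arm 2L was lower, with 203 of 1302 (15.6%), against 18.7% of conservative peaks (odds ratio 0.804, adjusted p 0.0286). The shares were 20% on 2R, 23.9% on 3L, 23.9% on 3R and 16.1% on X, none past the test, and Y held 0. On chromosome 4 replicate 2 ranked 288 peaks in all, against 69 in replicate 1, and its part in the count of 7 was not tested. Without replicate 2 the odds ratio was 4.60 for chromosome 4 and 1.02 for 2L, and neither passed. Without replicate 1, 5 arms passed: chromosome 4 (9.07), 2L (0.734), 2R (1.59), 3L (1.30) and X (0.613).

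The 7 peaks of chromosome 4 had 6 different nearest genes, and 3 of the peaks were intergenic. The strongest, intergenic and 3903 bp from a TSS of zfh2, a zinc finger and homeodomain gene, had 218.3 pooled and 153.3 in replicate 2, with no replicate 1 peak over the summit. A further peak 74 bp from a zfh2 TSS had 80.7 pooled and 32.2 in replicate 2. The peak 188 bp from a TSS of Sox102F, a Sox factor gene, had 170.9 pooled and 158.4 in replicate 1, with no replicate 2 peak over the summit. The lgs peak is described below. The peak nearest the long non-coding RNA gene CR44024 had 120.1 pooled and 58.6 in replicate 2. The peak nearest mir-9385 had 85.6 pooled, 28.6 in replicate 1 and 51.9 in replicate 2. The peak 91 bp from a TSS of Rnf11 had 66.6 pooled, 40.0 in replicate 1 and 26.0 in replicate 2. None of the 7 had the TCF core, which was at 9.45% of all longer-list-only summits, so 7 are too few to set apart.

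Of 13968 protein-coding genes, 1532 (11.0%) had a longer-list-only summit in the gene or 2 kb to either side. For 617 genes (4.42%) there was a longer-list-only summit and no conservative one. Within 1 kb of a TSS, 772 genes (5.53%) had one, and at 528 of these no conservative summit lay within 1 kb of a TSS. Long genes collect more peaks, so each list whose share is printed comes with its median gene length, which is 2.16 kb over all protein-coding genes. Gene lists are described by counts, with no test.

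In the Wnt pathway list 16 of 49 genes (32.7%) had a longer-list-only summit, with a median gene length of 9.25 kb. Conservative summits were frequent there too, at 36 of the 49 genes, against 5549 of all 13968 protein-coding genes. For 10 (20.4%) it was within 1 kb of a TSS: Apc, CkIalpha, CtBP, Notum, arr, fz, fz2, fz3, gish and lgs. At 6 of them, CkIalpha, Notum, arr, fz, fz2 and lgs, no conservative summit lay within 1 kb of a TSS. Over all protein-coding genes this held for 528 of 772. In 3 genes (6.12%), CkIalpha, Swim and lgs, no conservative summit lay in the gene or 2 kb either side, against 4.42% of all protein-coding genes. In the list of Wingless-responsive genes 18 of 50 (36.0%) had a longer-list-only summit (median length 16.2 kb), 8 of them (16.0%) near a TSS. A conservative summit was at 35 of the 50. In 2 of the 50 (4%), al and hh, there was no conservative summit, against the same 4.42%. The 14 peaks that were strongest near a TSS of these genes had pooled signals from 48.1 to 123.8 with a median of 73.8. None had the TCF core within 50 bp, against 9.45% of all longer-list-only summits, and 14 peaks are too few for this to set them apart. The CtBP peak held the looser form.

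Receptors of the pathway had such peaks at their start sites. The fz2 peak, at the gene of the main Wingless receptor and 8 bp from a TSS, had 82.4 pooled and 82.7 in replicate 2, with no replicate 1 peak over the summit. The fz peak, 40 bp from a TSS of the other Wingless receptor gene, had 75.1 pooled, 23.3 in replicate 1 and 51.4 in replicate 2. The fz3 peak, 37 bp from a TSS of a further Frizzled gene, had 78.2 pooled, 23.6 in replicate 1 and 52.9 in replicate 2. At fz and fz3, the 2 with both values, replicate 2 was the higher. The arr peak, 7 bp from a TSS of the LRP co-receptor gene, had 67.6 pooled, 26.1 in replicate 1 and 41.1 in replicate 2. In the gene territories of fz and fz2 there were 12 and 7 conservative summits, but none within 1 kb of a TSS, and arr had 2.

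Genes of pathway components that act inside the cell also had such peaks near a TSS. The Apc peak, 3 bp from a TSS of a scaffold gene, had 59.4 pooled, 26.3 in replicate 1 and 45.7 in replicate 2. The CkIalpha peak, 40 bp from a TSS of a kinase gene that primes Armadillo for destruction, had 72.6 pooled, 24.2 in replicate 1 and 46.7 in replicate 2. The gish peak, at the gene of casein kinase I gamma, had 76.6 pooled and 32.7 in replicate 2. The lgs peak, 175 bp from a TSS on chromosome 4 and printed above, had 101.7 pooled and 51.2 in replicate 2, with no replicate 1 peak over the summit. lgs encodes the BCL9 adaptor between Armadillo and pygo. The CtBP peak, 953 bp from a TSS of a corepressor gene, had 48.1 pooled, 21 in replicate 1 and 31.3 in replicate 2. All of these that had both values were higher in replicate 2, as were 59.7% of all longer-list-only peaks with both values.

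Responsive genes showed both patterns. The Notum peak, 82 bp from a TSS of a secreted enzyme gene that inactivates Wingless, had 85.3 pooled, 28.5 in replicate 1 and 57.8 in replicate 2. It held GAGA sites and CACGTG, as printed above, and the gene had 5 conservative summits elsewhere. The neur peak, 209 bp from a TSS of an E3 ubiquitin ligase gene of the Notch pathway, had 123.8 pooled, 82.7 in replicate 1 and 22.9 in replicate 2. The al peak, 64 bp from a TSS of the homeodomain gene aristaless and 36677 bp from any conservative summit, had 69.6 pooled, 35.1 in replicate 1 and 28.1 in replicate 2. The Dll peak had 68.5 pooled, 20.9 in replicate 1 and 44.9 in replicate 2, and the Sox14 peak 56.8 pooled, 24.3 in replicate 1 and 43.1 in replicate 2. The Sox14 peak was 850 bp from a TSS of that gene and nearer to one of PPP1R15, at 696 bp. Over the 14 peaks, 9 were higher in replicate 2, 2 in replicate 1, and 3 had no replicate 1 peak over the summit. Among all longer-list-only peaks with both values 59.7% were higher in replicate 2, and 108 of the 1302 had no replicate 1 peak there. With 14 peaks this does not set the Wnt and Wingless-responsive genes apart.

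The 10 strongest longer-list-only peaks were mostly seen in 1 replicate. For 7 of the 10 no replicate 1 peak held the pooled summit, and for 1 no replicate 2 peak did. The CG14478 promoter peak had 315.7 pooled and 194.8 in replicate 2. The muskelin peak, 38 bp from a TSS, had 284.5 pooled and 157.2 in replicate 2. The NiPp1 peak, 102 bp from a TSS of a phosphatase inhibitor gene, had 226.2 pooled and 91.2 in replicate 2, and the nearest conservative summit was 75639 bp away. All 3 lacked a replicate 1 peak over the summit, as did an intronic peak nearest CG14073 (223.4 pooled, 138.7 in replicate 2), the CYLD promoter peak (194.2 pooled, 100.2 in replicate 2) and an intergenic peak nearest Lip4 (177.1 pooled, 26.0 in replicate 2).

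The other strong peaks were higher in replicate 1 where both values existed. A peak in an intron within arr, nearest a TSS of CG43192, had 180.1 pooled, 134.8 in replicate 1 and 64.9 in replicate 2, and held the TCF core. A peak 1180 bp from a TSS of bin, the FoxF gene of visceral mesoderm, had 176.3 pooled, 183.4 in replicate 1 and 69.1 in replicate 2, and its summit lay 200 bp from a conservative one. The Afg3l2 peak, at a mitochondrial protease gene, had 173.6 pooled and 112.4 in replicate 1, with no replicate 2 peak over the summit. Of the 10, 6 were in replicate 2's own list alone, 1 in replicate 1's alone and 1 in neither.

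In other lists of developmental genes the share with a longer-list-only summit near a TSS ran from 0 in the Hox (median length 30.6 kb), mesoderm and heart (8.15 kb), muscle structural (7.05 kb) and germline (5.22 kb) lists to 20.7% of 29 genes of the EGFR, FGFR and MAPK list (median length 13.3 kb). In that list the aos peak is printed above, the cnk peak, at a scaffold gene of Ras signalling, had 72.0 pooled, 26.1 in replicate 1 and 54.3 in replicate 2, and the S (Star) peak 71.4 pooled, 42.6 in replicate 1 and 17.3 in replicate 2. Of 40 neural genes (median length 3.62 kb) 6 (15%) had one near a TSS. Among them, the peak 25 bp from a TSS of pros, a homeodomain gene of neural precursors, had 75.6 pooled, 28.3 in replicate 1 and 58.2 in replicate 2. The peak 19 bp from a TSS of ttk, a zinc finger repressor gene, had 78.2 pooled, 26.0 in replicate 1 and 43.7 in replicate 2. The lola peak went the other way, with 102.3 pooled, 96.1 in replicate 1 and 13.2 in replicate 2.

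In the endoderm, tracheal and epidermal lists, srp, grh and salm had such peaks at starts that no conservative summit marked. The srp peak, at a GATA factor gene, had 79.0 pooled, 29.5 in replicate 1 and 40.7 in replicate 2. The grh peak, at the Grainyhead gene, had 70.1 pooled, 42.4 in replicate 1 and 26.5 in replicate 2. The salm peak, 19 bp from a TSS of the zinc finger gene spalt major and 49834 bp from any conservative summit, had 64.8 pooled, 26.7 in replicate 1 and 38.8 in replicate 2. It held both the TCF core and the helper site. At dve, an endoderm homeodomain gene, the values were 67.0 pooled, 26.4 in replicate 1 and 47.1 in replicate 2. Replicate 2 was the higher at srp, salm and dve and replicate 1 at grh.

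Signalling lists outside Wnt had near-TSS shares of 12% for the Notch pathway (median length 3.85 kb), 12% for the BMP pathway (7.12 kb) and 11.1% for the Hedgehog pathway (6.70 kb). The mam peak, at the Notch coactivator gene mastermind, had 75.4 pooled, 19.8 in replicate 1 and 51.0 in replicate 2. The E(spl)mdelta-HLH peak, 472 bp from a TSS of that Notch target gene, had 51.4 pooled, 47.0 in replicate 1 and 13.4 in replicate 2. It held the TCF core, and a TSS of CG43116 was nearer, at 153 bp. The shn peak, at the Schnurri gene of BMP signalling, had 93.9 pooled and 44.1 in replicate 2, with no replicate 1 peak over the summit. The Mad peak, at the BMP effector gene, had 88.1 pooled, 52.0 in replicate 1 and 28.9 in replicate 2. The sog peak, at a secreted BMP antagonist gene, had 77.1 pooled, 28.4 in replicate 1 and 45.3 in replicate 2. The boi peak, at a Hedgehog co-receptor gene, had 80.4 pooled, 24.6 in replicate 1 and 52.3 in replicate 2, and held the helper site.

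Regulators of chromatin, hormone response and the cell cycle were also among the genes. The Su(z)2 peak, 13 bp from a TSS of a Polycomb-group gene, had 110.1 pooled, 39.1 in replicate 1 and 71.2 in replicate 2. The Kdm5 peak, at a histone demethylase gene, had 95.3 pooled, 27.8 in replicate 1 and 54.2 in replicate 2. The ftz-f1 peak, 183 bp from a TSS of a nuclear receptor gene and 180 bp from one of the long non-coding RNA gene CR45939, had 114.0 pooled. Its signals were 26.8 in replicate 1 and 83.3 in replicate 2. The tai peak, at an ecdysone receptor coactivator gene, had 111.0 pooled and 63.1 in replicate 2. The CycB peak, at the cyclin B gene, had 76.8 pooled, 17.2 in replicate 1 and 65.4 in replicate 2. Other peaks of the same lists were higher in replicate 1: Claspin, with 37.4 in replicate 1 and 31.9 in replicate 2, and Eip75B, with 31.7 in replicate 1 and 30.4 in replicate 2.

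Ribosomal, proteasome and sensory receptor genes followed. Among 85 cytosolic ribosomal protein genes (median length 1.33 kb), 10 (11.8%) had a longer-list-only summit and 2 (2.35%) had one near a TSS, while 70 had a conservative summit. The RpL26 peak had 114.8 pooled, 82.7 in replicate 1 and 29.7 in replicate 2. Of 48 proteasome genes (median length 1.38 kb), 3 (6.25%) had one near a TSS, against 5.53% of all protein-coding genes. All 3 lacked a conservative summit there. The Rpn11 peak had 102.7 pooled, 79.6 in replicate 1 and 22.6 in replicate 2, and held the TCF core. The Rpn13 peak had 94.6 pooled, 65.6 in replicate 1 and 30.6 in replicate 2. Among 119 odorant and gustatory receptor genes (median length 1.44 kb), 2 (1.68%) had a longer-list-only summit and 0 had one near a TSS.

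Few genes collected several of these peaks: 221 genes had 2, 42 had 3 and 14 had 4 or more. The most, 6 each, were at bowl, Tlk and Tet. At bowl, an odd-skipped family gene of 12.4 kb with 3 conservative summits, the pooled signals were 88.2, 60.0, 38.6, 36.2, 23.6 and 17.5, and several of the summits lay close together. At Tlk, the Tousled-like kinase gene (69.8 kb, 16 conservative summits), they ran from 2.87 to 88.5. At Tet, a gene of the TET dioxygenase family (93.0 kb, 7 conservative summits), they ran from 2.35 to 93.8, with the TCF core at the strongest. The genes sky and CG43739, which share the same interval of 47.6 kb, had the same 5 peaks.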

How the data were processed

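Peak lists on dm6 were deposited for 2 replicates and their pool, per the file headers; the aligner, peak caller and read depth are not given in the sources used here. Each deposited peak carries the authors' score (IDR rescaled, at most 1000), signal (scale not given) and −log10 q, and ranked lists a deposited −log10 IDR as a score. The −log10 q was not used.

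The 10 longer-list peaks off the main arms were left out. Summits were placed on Ensembl release 115 without transposable-element genes; sequence came from RefSeq Release 6. Both strands were searched for motifs, 50 bp to either side of a summit. Ranked peaks overlapping no passing list (118895) gave the non-passing set. Fisher's exact test (scipy 1.17.1, two-sided) compared shares, with Woolf 95% intervals of odds ratios, Clopper-Pearson intervals of shares and Benjamini-Hochberg adjustment within each family. The GC covariate used a logistic model (statsmodels 0.14.6). Intervals cover counting over peaks only. The 6-mer script was tested on simulated data. Windows overlapping an exon were not printed.

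Named peaks were the 10 strongest, the strongest near a TSS of each Wnt or Wingless-responsive gene, all on chromosome 4, the 5 genes with most, and up to 3 per other list, of which some are given; 6-mers were the 5 called highest and 5 lowest among those at 2% of summits or more. Members, lists and motifs were chosen with earlier results of these data known. The replicate split, quotients over flanks, GC covariate, central signal range and counting overlapping peaks once were added after seeing the data.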

Additional observations from a re-analysis of the deposited data

How the results depend on the processing

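The deposited lists give no depth, so no value here covers sequencing error, and 2 replicates in 1 group allow no test between conditions. No paired analysis between conditions was possible because there is 1 group. Summit and flank windows come from the same peaks, and the tests and quotients over flanks did not use this pairing. Where a result passed its threshold neither as reported nor under an alternative, its direction was not compared. Leaving out a replicate here means keeping longer-list-only peaks that overlap the other replicate's own list (471 peaks for replicate 2, 231 for replicate 1), so fewer peaks were tested. The conservative peaks were not filtered in this way, so these values mix the choice of replicate with the difference between the lists. Of the single motifs, arms and classes, 261 results under alternatives stayed as reported, 49 lost their call, 10 gained one and 26 turned.

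The odds ratio of a TSS within 1 kb, 1.01 as reported, became 1.18 (adjusted p 0.0362) against the central signal range and 3.19 against peaks that passed nowhere, and ranged from 0.817 to 1.46 without either replicate. The TCF core over flanks, 1.24 as reported, ranged from 1.15 to 1.77 without either replicate, with an unadjusted p of 0.0387 without replicate 2, and was 1.06 with windows of 100 bp. The 480 called 6-mers became 4 against the central range, 290 for peaks over 1 kb from a conservative peak, 99 for the higher-scoring peaks, and 0 to 314 without either replicate. The 6 called motifs became 2 with the GC covariate, 1 against the central range, 2 over 1 kb away, 1 for the higher-scoring peaks, 11 against peaks that passed nowhere, and 1 without either replicate. The 2 called arms became 1 against the central range, 1 over 1 kb away, 1 for the higher-scoring peaks, 1 with overlapping peaks counted once, and 0 to 5 without either replicate. On chromosome 4 the odds ratio without replicate 2 was 4.60 and did not pass.

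Turned values came mainly from the change of comparison set. Against peaks that passed nowhere the odds ratios were 1.48 for the TCF core, 1.26 for BEAF, 3.07 for DREF, 2.68 for M1BP, 1.46 for GATA, 1.41 for Sox, 1.88 for the TATA box, 1.30 for the homeodomain site, 0.979 for CACGTG, 0.774 for the E-box and 0.808 for the helper site. For position they were 0.168 for exonic, 0.0828 for coding-exon and 0.617 for intergenic summits. With the GC covariate the TATA box was at 1.04, the homeodomain site at 1.12 and the helper site at 0.992. Without either replicate the ranges were 0.795 to 2.06 for a TSS within 100 bp, 0.728 to 1.07 for intronic, 0.664 to 1.27 for intergenic and 0.983 to 1.45 for coding-exon summits, 0.734 to 1.02 for arm 2L, 0.604 to 1.11 for the E-box, 0.611 to 1.31 for the TATA box, 0.579 to 1.43 for the homeodomain site and 0.556 to 1.58 for the helper site; the cause was not tested. Within the replicate split, the share within 1 kb of a TSS did not pass for the higher-scoring peaks (odds ratio 1.62, adjusted p 0.0612), and the share within 100 bp did (3.47).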
